A study of Arabidopsis thaliana with 9 samples.

Results

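Among the 4502 Pol V transcripts listed for *Arabidopsis thaliana*, 515 (11.4%) had no listed Pol V transcript on the other strand, here called single-strand, and overlapped an AGO4-bound transcript of their own strand. Weaker Pol V signal on the other strand is not in the list and could not be examined. They were chosen by 4 limits on the deposited lists: at most 3 reads in each *nrpe1* library, a length below 1400 bp, no overlap with a listed Pol V transcript of the other strand, and 1 bp or more shared with a listed AGO4-bound transcript on the same chromosome and strand. The limit on *nrpe1* reads kept 4258 transcripts, the limit on length 3960 and the limit on the other strand 1969, of which 515 (26.2%) had an AGO4-bound partner. The remaining 1454 single-strand transcripts without a listed partner, for short called without AGO4 below, served as the comparison throughout. Both lists were made by the authors from the Col-0 and mutant libraries described here, so the number of reads and the difference between Col-0 and either mutant had already selected the transcripts, and they are given as a description without any test.

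The study immunoprecipitated RNA from crosslinked nuclei with anti-NRPE1 (Pol V RIP-seq) or anti-AGO4 (AGO4 RIP-seq) antibodies and sequenced it with strand information. The Pol V RIP-seq had Col-0 wild type and *nrpe1* (nrpd1b-11), a mutant in the gene of the largest Pol V subunit, in 2 biological repeats each, whose source is not described further, and the AGO4 RIP-seq had Col-0 wild type and *ago4* (ago4-1, introgressed into Col-0) in 1 library each. Every library came from the aerial part of seedlings on soil, about 2.5 weeks old, of the Col-0 background and fixed in 0.5% formaldehyde. These were 6 of the 9 libraries of the series, and the other 3 were not analysed here. Summed over the Pol V list, repeats 1 and 2 held 251106 and 189141 reads for Col-0 but 3049 and 1980 for *nrpe1*, and the AGO4 list held 118313 for Col-0 but 6245 for *ago4*. The totals of the libraries are unknown here, so libraries were compared on reads. The transcripts were called outside annotated genes, so neither the mutated genes nor markers of leaf tissue could be checked in them.

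Pol V is a plant RNA polymerase whose long non-coding transcripts serve as scaffolds in RNA-directed DNA methylation. AGO4 is an Argonaute protein loaded with small interfering RNAs, and its contact with a Pol V transcript is thought to lead the methyltransferase DRM2 to the locus. Methylation in the CHH context, where H is any base but G, has no symmetric cytosine to be copied from and has to be set anew, which DRM2 can do. The lists record overlap in position between separate crosslinked immunoprecipitations, not direct contact of AGO4 with a transcript.

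Stretches of 7 transcripts are printed because they carry the extremes described below. All are the part that Pol V and AGO4 RIP-seq had in common, limited to its first 300 bases, on the strand of the transcript from 5′ to 3′, taken from the RefSeq sequence of TAIR10.1. Capitals mark CHH cytosines, the context that has no symmetric partner on the other strand. The 3 transcripts with the most Pol V reads come first.
PVTrans2650: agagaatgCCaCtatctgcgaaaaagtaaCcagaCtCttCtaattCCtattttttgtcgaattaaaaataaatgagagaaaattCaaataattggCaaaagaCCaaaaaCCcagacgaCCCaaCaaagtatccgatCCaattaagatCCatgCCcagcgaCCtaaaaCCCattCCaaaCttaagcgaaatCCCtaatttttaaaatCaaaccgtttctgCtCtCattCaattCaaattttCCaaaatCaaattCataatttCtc
PVTrans3856: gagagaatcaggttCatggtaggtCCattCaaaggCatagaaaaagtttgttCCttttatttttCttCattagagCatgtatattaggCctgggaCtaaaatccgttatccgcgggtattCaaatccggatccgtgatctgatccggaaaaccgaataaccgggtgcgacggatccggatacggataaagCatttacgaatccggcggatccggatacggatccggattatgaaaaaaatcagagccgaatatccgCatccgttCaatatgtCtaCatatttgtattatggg
PVTrans3037: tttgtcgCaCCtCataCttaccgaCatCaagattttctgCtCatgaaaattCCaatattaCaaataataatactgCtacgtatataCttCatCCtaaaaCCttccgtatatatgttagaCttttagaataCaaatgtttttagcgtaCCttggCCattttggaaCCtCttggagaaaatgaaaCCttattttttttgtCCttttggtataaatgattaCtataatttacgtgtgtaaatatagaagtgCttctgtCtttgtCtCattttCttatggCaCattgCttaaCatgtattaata
The stretch of PVTrans2650 lies at chr3:16647219-16647482 on the minus strand and holds 47 CHH, 7 CHG and 8 CG cytosines. That of PVTrans3856 lies at chr5:9983808-9984099 on the minus strand and has a different makeup, with 21 CG, 18 CHG and 18 CHH cytosines. The letters ATCCGG, or CCGGAT as read on the other strand, were counted 10 times in the whole of PVTrans3856. An ATCCGGAT holds both and counts for each. They occurred at least once in 18 (6.45%) of the 279 listed Pol V transcripts of 297 to 363 bp, and at least 5 times in 1 of these 279, PVTrans3856 itself. This motif was chosen after the sequence had been read. The stretch of PVTrans3037 lies at chr4:2577292-2577591 on the plus strand and holds 42 CHH, 5 CHG and 6 CG cytosines.

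The 3 transcripts whose partners had the most AGO4 reads are shown next, followed by the transcript with the most other copies in the genome.
PVTrans2222: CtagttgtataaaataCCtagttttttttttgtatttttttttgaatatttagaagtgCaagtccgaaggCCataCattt
PVTrans1324: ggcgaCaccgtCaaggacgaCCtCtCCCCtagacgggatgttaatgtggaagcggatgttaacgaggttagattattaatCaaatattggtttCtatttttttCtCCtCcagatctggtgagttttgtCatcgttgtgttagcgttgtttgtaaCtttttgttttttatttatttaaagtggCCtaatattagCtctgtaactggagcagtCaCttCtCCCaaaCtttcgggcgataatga
PVTrans4447: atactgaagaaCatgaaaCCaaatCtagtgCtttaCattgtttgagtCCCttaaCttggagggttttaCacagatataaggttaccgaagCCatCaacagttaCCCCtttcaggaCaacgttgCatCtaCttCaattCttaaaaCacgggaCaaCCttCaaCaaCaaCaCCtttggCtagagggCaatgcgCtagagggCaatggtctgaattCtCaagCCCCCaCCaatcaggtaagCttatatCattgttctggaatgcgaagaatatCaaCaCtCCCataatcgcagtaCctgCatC
PVTrans3155: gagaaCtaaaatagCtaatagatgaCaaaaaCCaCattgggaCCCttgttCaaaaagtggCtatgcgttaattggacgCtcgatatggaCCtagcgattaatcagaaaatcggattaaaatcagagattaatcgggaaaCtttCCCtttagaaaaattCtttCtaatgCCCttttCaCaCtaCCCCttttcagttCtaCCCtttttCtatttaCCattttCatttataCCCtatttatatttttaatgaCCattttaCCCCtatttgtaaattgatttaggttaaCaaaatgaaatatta
The stretch of PVTrans2222, at chr3:9406014-9406093 on the plus strand, is only 80 bases long, because its AGO4-bound partner ends there. It is 26.3% GC, the lowest of the 7 stretches. Those of PVTrans1324 (chr2:2768352-2768592, plus strand) and PVTrans4447 (chr5:22655666-22655965, minus strand) are 39.8% and 42.7% GC. The stretch of PVTrans3155 lies at chr4:5613445-5613744 on the minus strand and holds 48 CHH, 3 CHG and 6 CG cytosines.

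Pol V RIP-seq reads on the 515 transcripts numbered 27259 and 21990 in the Col-0 repeats 1 and 2, which are 10.9% and 11.6% of the Col-0 reads on the list. In *nrpe1* they had 22 and 108. Neither *nrpe1* library had a read for 428 transcripts (83.1%), while repeat 1 alone had none for 501 and repeat 2 alone none for 439. The share without a read in either was 90.6% for single-strand transcripts without AGO4 and 82.3% for the whole list. Since the limits used *nrpe1* reads, nothing is read from these shares. Reads in Col-0 ranged from 3 through a median of 46 to 279 in repeat 1, and from 3 through 35 to 229 in repeat 2. With *nrpe1* taken as at least 3 reads, Col-0 exceeded the mutant by a median of at least 13.5-fold (12.5 to 14.2), and 322 of 515 (62.5%) reached 8-fold in both repeats. Ranges in parentheses here and below are 95% intervals over transcripts, which include no error between libraries. Of the whole list 56.4% reached 8-fold in both, and since the limits used this contrast nothing is read from the difference. In bulk tissue, fewer cells with a transcript and less RNA per cell cannot be told apart.

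The highest Pol V signal belonged to PVTrans2650 (chr3:16646944-16647482, minus strand), which Col-0 repeats 1 and 2 read 279 and 187 times and neither *nrpe1* library at all. PVTrans3856 (chr5:9983769-9984099, minus strand) followed with 278 and 141 Col-0 reads against none in *nrpe1*. PVTrans3037 (chr4:2577291-2578469, plus strand) had 211 and 194 Col-0 reads, and *nrpe1* had 0 and 1. For these 3 the fold of Col-0 over *nrpe1* was at least 77.7, 69.8 and 67.5. PVTrans4292 had 127 and 218 Col-0 reads, PVTrans620 162 and 171, and PVTrans1436 129 and 187, against at most 1 in *nrpe1*. The order of the 6 therefore differed between the repeats, and PVTrans4292 led in repeat 2 among them. Per length, PVTrans3856 was the highest of the 515 with 63.5 reads per 100 bp as the mean of the repeats, before PVTrans1027 with 55.5 and PVTrans1953 with 53.5. All 3 were short, at 330, 263 and 215 bp.

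**Figure D1:**
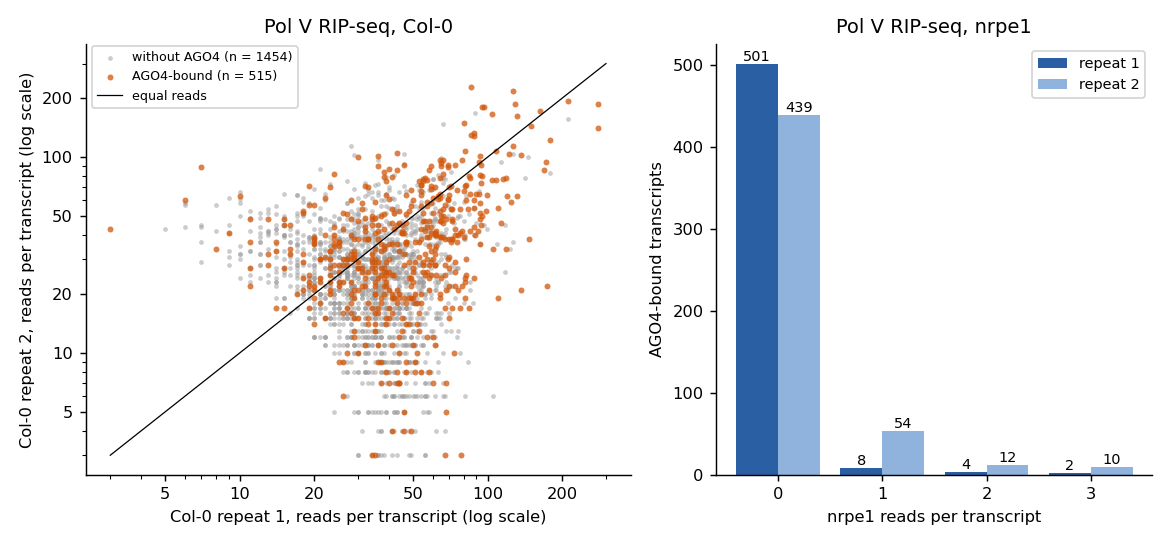
The left plot shows Pol V RIP-seq reads per transcript in Col-0 repeat 1 (x axis, log scale) and repeat 2 (y axis, log scale), with a line of equal reads. Orange marks the 515 AGO4-bound single-strand transcripts and grey the 1454 without a listed AGO4 partner. The right plot counts the 515 transcripts by their *nrpe1* reads in each repeat, and 501 and 439 had none.

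The 515 transcripts had more Pol V reads than single-strand transcripts without a listed AGO4 partner. Medians in Col-0 repeats 1 and 2 were 46 and 35 reads against 35 and 24. Per length the median was 7.37 reads per 100 bp (6.89 to 7.74) against 4.95 (4.79 to 5.11), and the direction was the same in repeat 1 (8.40 against 5.65) and in repeat 2 (6.25 against 3.97). Median lengths were 576 bp (544 to 611) against 614.5 bp (595 to 641). The 833 AGO4-bound transcripts within the same limits that were overlapped by a Pol V transcript of the other strand had medians of 61 and 45 reads, 7.83 reads per 100 bp and 680 bp. Per length, the AGO4-bound transcripts with and without a counterpart on the other strand were thus closer to each other than to the transcripts without AGO4.

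The share with an AGO4-bound partner went up with the Pol V signal. Among the 1969 single-strand transcripts in 5 bins of equal number, ordered by mean Col-0 reads, 13.5%, 16.5%, 21.3%, 25.1% and 54.3% had a partner. The last bin began at 44.5 reads and held 214 of the 515. Ordered by reads per 100 bp, the share went from 10.4% to 48.5%, and ordered by length from 30.3% in the shortest to 22.1% in the longest transcripts. The longest transcripts thus had the most reads and the lowest share of AGO4 among the length bins. A transcript without a partner is not shown to be free of AGO4, since partners had 5 or more reads and weaker signals are not in the AGO4 list. That list also held no ratio of Col-0 to *ago4* reads below 6.06, so signals less dependent on AGO4 are missing from it. The authors found AGO4 RIP-seq signal on most Pol V transcripts.

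**Figure D2:**
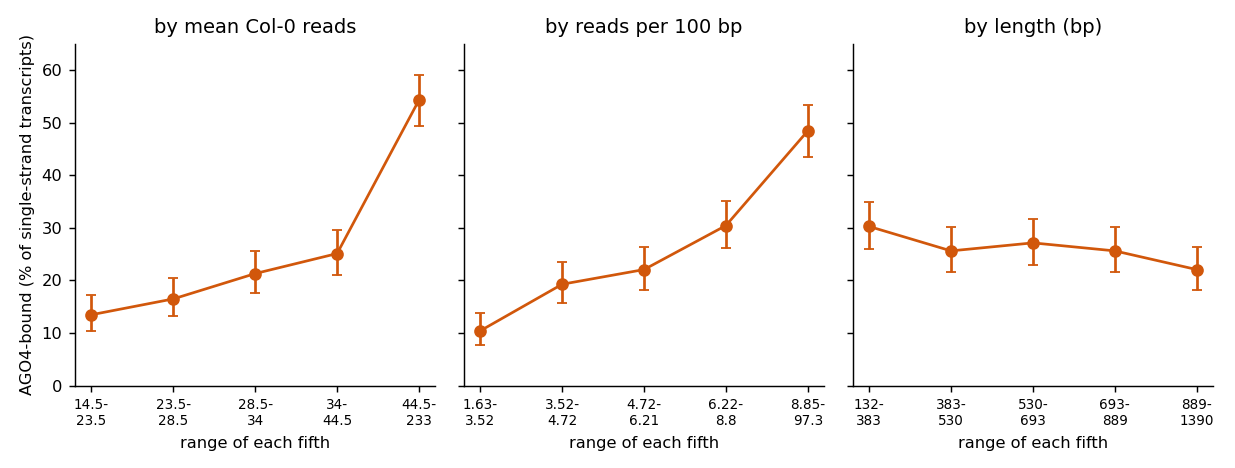
The share of the 1969 single-strand transcripts that had an AGO4-bound partner (y axis, percent) is plotted for 5 bins of equal number ordered by mean Col-0 reads, by reads per 100 bp and by length, with the range of each bin under the x axis and Wilson 95% intervals as bars. It reached 54.3% in the bin with the most Pol V reads and stayed between 22.1% and 30.3% across lengths.

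The repeats placed many of the 515 differently. Reads in Col-0 were within 2-fold of each other for 340 transcripts (66.0%) and over 4-fold apart for 49 (9.51%), and 332 (64.5%) had more reads in repeat 1. The whole list was much alike, with 64.5%, 10.1% and 68.7%. These are raw reads, and repeat 1 held more reads over the list. The rank correlation of the repeats was 0.345 across the 515 (Pearson's r of log2 reads 0.298) and 0.369 across the whole list, where every transcript shares the same libraries and the same filters. The widest gaps, named after their values were seen, were 78 against 3 reads in PVTrans101, 67 against 3 in PVTrans935 and 3 against 43 in PVTrans3099, all with 0 in *nrpe1*. The order of individual transcripts therefore depended on the repeat.

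On the AGO4 side, the 515 transcripts overlapped 517 AGO4-bound partners. Of the transcripts, 512 had 1 partner and 3 had 2, and 1 partner was shared. The partners had 8751 reads in the Col-0 library and 148 in *ago4*, or 4617 and 82 with duplicate reads counted once. Col-0 reads per partner ranged from 5 through a median of 14 to 164, while *ago4* had no read for 463 of 517 (89.6%), compared with 72.7% of the whole AGO4 list. Of the 833 AGO4-bound transcripts with a counterpart on the other strand, 91.4% had a partner without an *ago4* read. With *ago4* taken as at least 3 reads, the median fold of Col-0 over the mutant was at least 4.67, and 71 of 517 partners (13.7%) reached 8-fold. Of the whole AGO4 list 25.2% did, and nothing is read from this difference because the list was made on the same contrast. With 1 library per genotype, these values have no replicate check.

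The partners with the most AGO4 reads mostly belonged to transcripts that were not among those with the most Pol V reads. The partner of PVTrans2222 (chr3:9406013-9406539, plus strand) held 164 Col-0 reads against 13 in *ago4*, while PVTrans2222 itself had 14 and 33 Pol V reads in Col-0 repeats 1 and 2. It lay 129 bp upstream of AOC2, which encodes an allene oxide cyclase of jasmonate synthesis, on the same strand. The 5′ end of the partner lay at -758 bp from that of PVTrans2222, and it shared only 80 bp (15.2%) with it. The partner of PVTrans1324 (chr2:2768351-2769126, plus strand) had 98 AGO4 reads in Col-0 and 8 in *ago4*, over a length of 2772 bp, against 30 and 10 Pol V reads. PVTrans4447 (chr5:22655261-22655977, minus strand) overlapped the longest partner, of 2782 bp, with 82 Col-0 reads and 8 in *ago4*, against 23 and 21 Pol V reads. PVTrans4447 lay wholly inside OPT1, an oligopeptide transporter gene, and ran against it, with 566 of its 716 bp in coding sequence. It also overlapped an annotated long non-coding RNA gene, AT5G08425.

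The next partners were those of PVTrans3037 and PVTrans84, with 75 and 72 AGO4 reads in Col-0 and 11 and 5 in *ago4*, before PVTrans1 and PVTrans3856, which tied at 61 reads in Col-0 with 2 and 0 in *ago4*. PVTrans3037 and PVTrans3856 were also among the 6 with the highest Pol V signal. Of these partners, that of PVTrans3856 alone had no *ago4* read, while 54 of the 515 transcripts had a partner with any. Partners with *ago4* reads were longer, with a median of 701 bp against 414 bp for those without. The partners of 22 transcripts reached more than 500 bp past an end of the Pol V transcript, so AGO4 reads counted on them need not lie on the part that both share. PVTrans1, 400 bp downstream of KCS1, a gene of very-long-chain fatty acid synthesis, lay inside a partner of 1808 bp.

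Across the 515, Pol V and AGO4 reads were related only loosely. The rank correlation was 0.342 (Pearson's r of log2 reads 0.358), and 0.320 with both as reads per 100 bp. In 5 bins by mean Pol V reads, the median AGO4 reads were 12, 13, 13, 15 and 20 (95% interval in the last bin 19 to 23). These points share libraries and the limits of both lists. Lengths of the pairs were also related (rank correlation 0.368), as were AGO4 reads and partner length (0.441), and the part of length in the relation was not tested beyond the value per 100 bp. The 3 transcripts with the most Pol V reads, printed above, had 48, 61 and 75 AGO4 reads in Col-0. Their *ago4* reads were 0, 0 and 11.

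**Figure D3:**
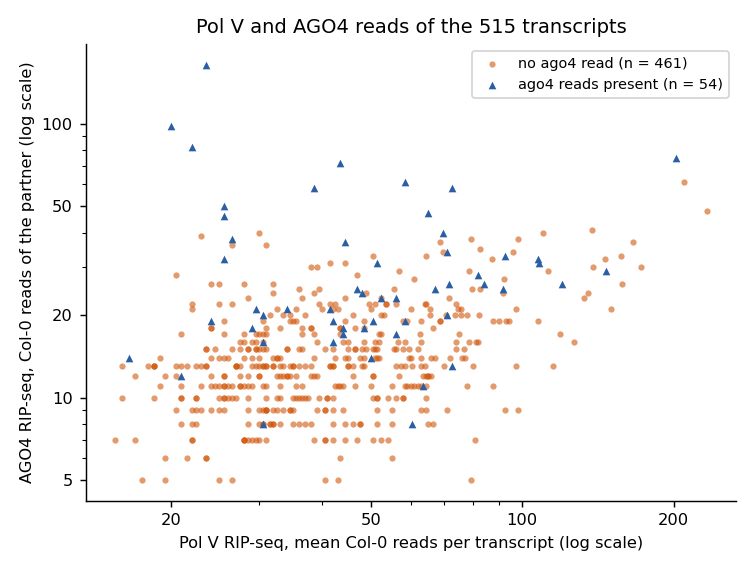
Each point is 1 of the 515 transcripts, with its mean Pol V RIP-seq reads in Col-0 (x axis, log scale) and the AGO4 RIP-seq reads of its partner in Col-0 (y axis, log scale). Triangles mark the 54 with *ago4* reads, which include the 164-read partner of PVTrans2222 at the upper left.

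Although a shared base pair was enough to be included, most transcripts shared much of their length with AGO4. AGO4-bound partners covered a median of 70.9% (67.8 to 73.6) of a transcript, and at least 50% of 388 of the 515, while 62 were covered in full. The partner lay inside the Pol V transcript in 201 cases (39.0%), was shifted upstream in 150 (29.1%) and downstream in 103, and enclosed the Pol V transcript in 61 (11.8%). The AGO4-bound 5′ end lay a median of 21 bp downstream of the Pol V 5′ end (9 to 34). The AGO4-bound 3′ end lay at a median of -41 bp (-65 to -26), that is, upstream of the Pol V 3′ end. Ends were within 100 bp of each other for 272 transcripts at the 5′ side and 251 at the 3′ side. In the 833 AGO4-bound transcripts with a counterpart on the other strand the medians were 34 and -47 bp, and their intervals overlapped with those of the 515. Among the 515, with at least 50% of the Pol V transcript shared, the medians were 7 and -16 bp.

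**Figure D4:**
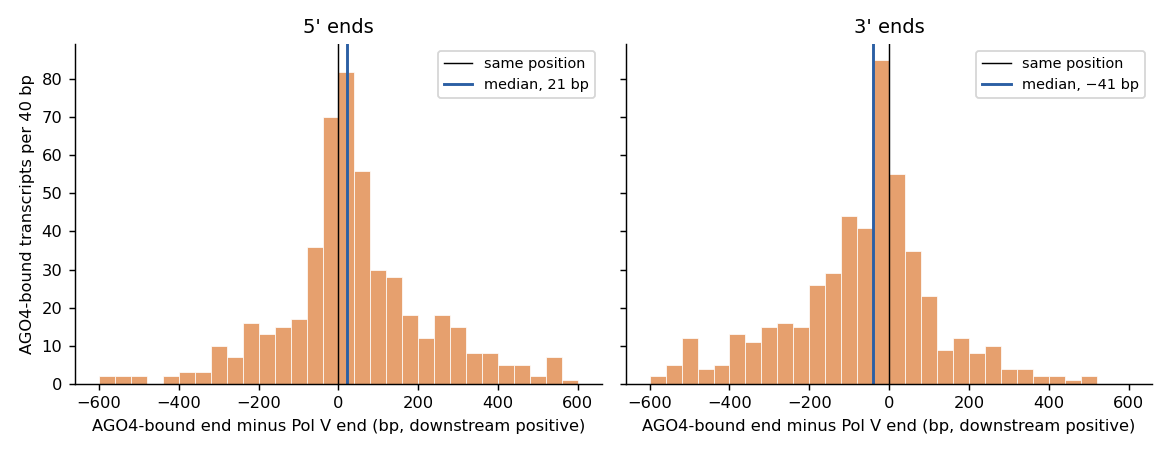
Histograms give the number of transcripts per 40 bp (y axis) by the distance of the AGO4-bound end from the Pol V end (x axis, bp, positive downstream) for 5′ and 3′ ends, with the medians of 21 and -41 bp in blue. Distances beyond 600 bp, of 22 transcripts at the 5′ and 25 at the 3′ side, are not drawn.

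The qPCR targets of the study include 3 of the 515, all with 0 reads in *nrpe1* and *ago4*. PVTrans290 (chr1:11857306-11857691, minus strand) had 72 and 38 Pol V reads in Col-0 repeats 1 and 2 and a partner with 6 AGO4 reads that covered 90.6% of it. PVTrans3151 (chr4:5567477-5567888, plus strand) had 79 and 42 Pol V reads and 13 AGO4 reads over 71.8%, and overlapped an annotated pseudogene. PVTrans4213 (chr5:16556622-16556880, plus strand) had 69 and 30 Pol V reads and 22 AGO4 reads, and lay inside its partner, 584 bp downstream of XPB1, a DNA repair helicase gene. Their Pol V reads were thus alike, while AGO4 reads went from 6 to 22.

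Cover varied widely between individual transcripts. PVTrans3563 shared 58 bp (6.39%) with its partner and PVTrans4219 151 bp (14.3%), and PVTrans2222, described above, was the third of the least covered. Among those covered in full, PVTrans3751 had the most Pol V reads, 149 and 144 in Col-0, and a partner with 29 AGO4 reads against 4 in *ago4*. It lay 478 bp upstream of VSP2, a jasmonate-responsive storage protein gene of the other strand, and overlapped an annotated pseudogene. PVTrans1027 and PVTrans2284 followed with 131 and 161, and 88 and 132 Pol V reads, with partners of 32 and 40 AGO4 reads and no read in *ago4*. PVTrans2284 lay wholly inside the annotated UMAMIT45, a transporter gene of the other strand, without reaching its coding sequence.

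The longest of the 515 were PVTrans1397 (1387 bp), PVTrans2064 (1359 bp) and PVTrans3924 (1352 bp), with 72 and 17, 47 and 37, and 37 and 19 Pol V reads in Col-0. AGO4 covered 45.3%, 65.2% and 25.4% of them. The shortest, PVTrans4283 (148 bp), PVTrans1116 (156 bp) and PVTrans479 (157 bp), had 26 and 52, 16 and 45, and 14 and 17 reads and were covered to 98.0%, 100% and 95.5%. PVTrans1116 lay 142 bp downstream of GAD4, a glutamate decarboxylase gene. These short transcripts were thus nearly enclosed by AGO4 and these long ones only in part. The median partner of the 515 was 429 bp long, between these lengths, so nothing is read from this contrast.

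An AGO4-bound transcript also ran on the other strand at 47 of the 515 (9.13%, 6.93 to 11.9), where no Pol V transcript was listed. Among single-strand transcripts without AGO4 on their own strand the share was 80 of 1454 (5.50%, 4.44 to 6.80), and among AGO4-bound transcripts with a Pol V counterpart it was 412 of 833 (49.5%). The contrast with those without AGO4 depended on the overlap required. Among the 515, with at least 50% of the Pol V transcript shared, the share was 6.74%, inside the interval of those without AGO4. Of the 47, 26 had more AGO4 reads on the strand of the Pol V transcript, 19 more on the other and 2 as many on both, with medians of 14 and 12 reads. The other-strand transcript had no *ago4* read in 39 cases. PVTrans1425, named after its values were seen, had 46 and 32 Pol V reads and 30 AGO4 reads on its own strand, inside an AGO4-bound transcript of the other strand of 8858 bp with 453 Col-0 reads and 12 in *ago4*.

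The 515 transcripts lay on all chromosomes, with 119, 91, 95, 85 and 125 on chromosomes 1 to 5, or 3.91 to 4.63 per Mb. The AGO4-bound share of single-strand transcripts was between 23.9% on chromosome 2 and 29.3% on chromosome 5. Windows of 500 kb with less than 30% of bases in protein-coding genes, here called gene-poor, make up 17.2% of the genome. In them lay 107 of the 515 (20.8%, 17.5 to 24.5) and 23.7% of those without AGO4. There, the transcripts had a median of 6.21 reads per 100 bp (5.69 to 7.10), against 7.65 (7.13 to 8.20) in the remaining windows. The plus strand held 238 and the minus strand 277.

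Protein-coding genes lay near. In the TAIR10.1 annotation 159 transcripts (30.9%, 27.0 to 35.0) overlapped a protein-coding gene, 19 (3.69%) a long non-coding RNA gene and 64 (12.4%) a pseudogene, while 275 (53.4%) overlapped no gene. A protein-coding gene was overlapped by 25.6% (23.4 to 27.9) of those without AGO4, 16.7% of the AGO4-bound transcripts with a counterpart and 23.0% of the whole list. The median gap to the nearest protein-coding gene was 226 bp (156 to 284), against 411.5 bp (333 to 481) without AGO4 and 390 bp on the whole list. For the AGO4-bound transcripts with a counterpart it was 449 bp (390 to 551). The 500 bp upstream of a gene was overlapped by 205 (39.8%, 35.7 to 44.1), against 31.0% (28.6 to 33.4) without AGO4, 39.1% of the AGO4-bound transcripts with a counterpart and 35.1% of the whole list. The 1 kb upstream was overlapped by 255 (49.5%, 45.2 to 53.8), against 44.5% (42 to 47.1), 51.1% and 47.4%. For 2 kb upstream the share was 61.2% (56.9 to 65.3), against 58.7% (56.1 to 61.2), 67.5% and 62.6%. The authors left out reads in the genes of an earlier annotation and transcripts that contained such genes, which limits where any listed transcript can lie.

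Where a transcript overlapped a protein-coding gene, the gene was mostly on the other strand. This held for 127 of the 159 (79.9%, 73.0 to 85.4), with the gene on the same strand in 29 and genes on both strands in 3. The share was 80.6% (76.3 to 84.3) without AGO4 and 69.1% on the whole list. Coding sequence was reached by 77 of the 159 (48.4%, 40.8 to 56.1) against 64.2% (59.3 to 68.9) without AGO4 and 49.6% of the whole list. Wholly inside a gene lay 32 (20.1%), against 33.3% without AGO4 and 19.3% of the whole list. Of the overlapped gene bases, 73.8% were in exons and 40.6% in coding sequence. PVTrans3037 showed both parts, with 431 bp in introns and 252 bp in exons of AT4G05030, against which it ran, and PVTrans3856 overlapped AT5G27950 of the other strand with 56 bp, all outside coding sequence. Whether the authors' filter on genic reads considered strand is not given in the sources used here, and its part in these shares was not tested.

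**Figure D5:**
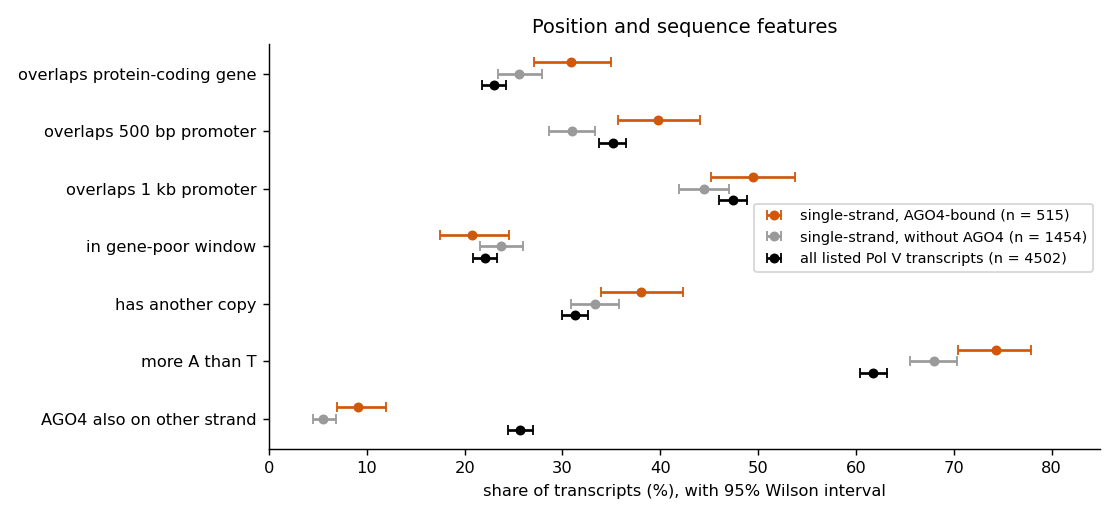
Points give the share of transcripts (x axis, percent) with each feature, with Wilson 95% intervals. Orange marks the 515 AGO4-bound single-strand transcripts, grey the 1454 without a listed AGO4 partner and black all 4502. The 515 overlapped 500 bp promoters in 39.8% and had AGO4 also on the other strand in 9.13%.

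The 515 were close to the rest in GC content but held more A than T. The median GC content was 34.0% (33.6 to 34.5) against 34.2% without AGO4, where the genome has 36.0%. On the strand of the transcript the median A content was 34.7% and that of T 30.7%, and A outnumbered T in 383 transcripts (74.4%, 70.4 to 77.9), against 68.0% (65.6 to 70.4) without AGO4, 58.3% of the 833 AGO4-bound transcripts with a counterpart on the other strand and 61.8% (60.4 to 63.2) of the whole list. Cytosines in the CHH context numbered a median of 12.4 per 100 bases on the transcript strand and 11.9 on the other, CHG 2.08 and 1.95, and CG 2.55. Individual transcripts departed from these values, as PVTrans3856, printed above, with 6.36 CG, 5.76 CHG and 6.67 CHH cytosines per 100 bases.

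Another copy in the genome, of at least 80% identity over at least 50% of the length, was found for 196 of the 515 (38.1%, 34.0 to 42.3), against 33.3% (30.9 to 35.8) without AGO4. At least 10 copies were found for 34 (6.60%, 4.76 to 9.08) against 3.92% (3.04 to 5.05). The AGO4-bound transcripts with a counterpart had 29.4% and 2.52%, and the whole list 31.3% and 3.51%. The contrast with those without AGO4 depended on how a copy was defined. At 90% identity over 50% of the length the shares were 21.2% against 16.4%, but at 80% identity over 80% they were 14.8% against 14.9%. In gene-poor windows the 515 did not have the higher share (31.4 to 49.7 against 36.9 to 47.3). In the remaining windows they did (32.9 to 42.3 against 27.9 to 33.3). A copy lay on another listed Pol V transcript for 104 of the 196. Transcripts of the 515 were joined where a copy of any of them overlapped another, and 54 formed 15 families of 2 to 10. The relation need not be mutual, as PVTrans1 was in a family with 0 copies of its own by this definition. The family of 10, on all chromosomes, held PVTrans1027 and PVTrans1953, both among the 3 with the most reads per length, and its mean Col-0 reads went from 29 to 146. Reads that map to several places had been placed only once by the authors, so reads of such transcripts can come from a copy, and this was not tested. Transcripts with and without copies had medians of 7.68 (7.12 to 8.58) and 6.99 (6.40 to 7.68) Pol V reads per 100 bp.

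PVTrans3155 (chr4:5613335-5613753, minus strand), printed above, had 40 copies, the most of the 515, with 54 and 64 Pol V reads in Col-0, 0 in *nrpe1*, and 19 AGO4 reads over 97.8% of its length. PVTrans70 had 39 copies with 23 and 33 Pol V reads and 7 AGO4 reads, and PVTrans4437 had 37 copies with 97 and 180 Pol V reads and 30 AGO4 reads. PVTrans70 was GC-rich for this group, at 51.2%. All 3 had 0 reads in *nrpe1* and *ago4*.

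The values next to each limit of the selection are given here once. By length, PVTrans1397 (1387 bp) was just inside, and PVTrans932 (1403 bp, 109 and 14 Pol V reads in Col-0) just outside. With 3 reads in an *nrpe1* library 12 transcripts were just inside, among them PVTrans4189 (95 and 180 reads in Col-0), and with 4 reads 6 were just outside, among them PVTrans50 (110 and 163 reads). By overlap with AGO4, PVTrans3563 shared 58 bp with its partner, while PVTrans1418 (27 and 25 reads) lay 2 bp away from an AGO4-bound transcript of its strand. By the other strand, PVTrans2246 (53 and 16 reads) had a Pol V transcript 34 bp away, and PVTrans1474 (48 and 4 reads) was overlapped by 5 bp. Only 36 of the 515 had a Pol V transcript of the other strand within 1 kb, and the median distance to the nearest was 11926 bp.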

How the data were processed

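The authors used SOAPsplice to map paired reads to TAIR10 and defined transcripts by unique reads outside annotated genes that were more numerous in Col-0 than in the mutant. They deposited raw read counts per transcript and library without normalization, for AGO4 also counts of deduplicated reads. Strand is that of the deposited lists. Errors are across transcripts only: 95% intervals are Wilson's for shares and by order statistics for medians. Of the columns with counts per library, 0 were left unused. The p-values and q-values deposited by the authors come from their own test and were not used.

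Overlaps, distances between ends and base composition were computed in Python 3.11.15 with numpy 2.4.6, pandas 2.3.3 and scipy 1.17.1, drawn with matplotlib 3.10.9, and checked on placed intervals. Length equalled stop minus start in all 4502 cases, so sequence was read from the base after the start, while positions of transcripts are as deposited. TAIR10.1 served as genome and annotation, and 5 of 6 primers of the 3 qPCR targets among the 515 matched exactly inside them. Copies were searched with BLAST 2.17.0 (discontiguous megablast, e-value 1e-10). Folds used a floor of 3 reads per library, and such bounds cover counting error only.

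The members and lists were chosen with earlier results of these data known. Transcripts were named by a rule: qPCR targets, the 6 with the most Pol V and the 6 with the most AGO4 reads, the 3 longest, shortest, densest, least and most covered and most copied, the longest partner, and those at the limits. Transposons were not analysed here. No test was run, because the limits used both contrasts and transcripts are not replicates.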

Additional observations from a re-analysis of the deposited data

How the results depend on the processing

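No paired analysis was possible because the results come from no test. Both genotypes of the Pol V RIP-seq were in each repeat, and the count of 8-fold transcripts was taken within each repeat. Of 28 alternatives, 14 stayed within the bounds set (1.5 times for the number of transcripts, 1 SD between repeats for a left-out repeat and for the rank correlation, otherwise the 95% interval), 14 moved a value further, and 0 reversed one. The number of transcripts stayed between 350 and 511 under stricter limits. An *nrpe1* floor of 1 read gave a median fold of 39.5. An overlap of at least 50% of the Pol V transcript gave 8.20 reads per 100 bp, a 5′ distance of 7 bp and a 3′ distance of -16 bp. With this overlap AGO4 was on the other strand for 6.74%, against 5.50% (4.44 to 6.80) without AGO4. Deduplicated AGO4 reads had a median of 7. Limits of 20% and 40% put 12.6% and 30.5% in gene-poor windows, and promoters of 500 bp and 2 kb held 39.8% and 61.2%. The part shared with AGO4 had a GC content of 35.0%. Copies were found for 21.2% at 90% identity and for 14.8% over 80% of the length, against 16.4% and 14.9% without AGO4. Without a repeat, the rank correlation of Pol V and AGO4 reads was 0.239 to 0.344, the median fold 11.7 to 15.3 and the reads per 100 bp 6.25 to 8.40. The cause of these moves was not tested beyond the changed setting. AGO4 had 1 library per genotype and few reads per partner, and whole-library depth is unknown, which limits every comparison of libraries.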
